A study of Saccharomyces cerevisiae with 9 samples.

Results

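The genes described here are 10 genes of sulfate assimilation and methionine synthesis in the budding yeast Saccharomyces cerevisiae: MET3, MET14, MET16, MET5, MET10, MET1, MET2, MET17, MET6 and STR3. They were chosen by name and systematic ID from the 5928 genes of the count table, and all 10 were among the 5646 genes with enough counts to test. Their poly(A)-selected RNA was measured by sequencing in 9 cultures, 3 biological replicates each of Pcf11-13, Pcf11-DNL and wild type. PCF11 encodes a subunit of cleavage factor I, which helps to cut new mRNA at its 3′ end and to end transcription by RNA polymerase II.

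All 9 cultures were w303, mating type alpha, with ade2-1, his3-11,15, trp1-delta, ura3-1 and a leu2 allele whose number the labels write differently for Pcf11-DNL than for the other groups. In all of them the chromosomal PCF11 gene was deleted with TRP1, and the cells lived on a PCF11 gene carried by a LEU2 plasmid, described as centromeric and of low copy number and named pRS325 in the genotypes. That gene was pcf11-13 in Pcf11-13, with no tag named, and an allele written pcf11-deltaN-link with V5 and MYC tags in Pcf11-DNL. In wild type it was V5-PCF11-MYC, so Pcf11-13 differs from wild type in the named tags as well as in the allele. Cultures grew in YPAD at 30 °C and carry the treatment label glucose. The growth protocol also describes a caffeine treatment, which no library's treatment label names, so the cultures were taken as untreated.

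Yeast takes up sulfate, activates it with ATP, reduces it to sulfite and then to sulfide, and joins the sulfide to a carbon chain made from homoserine, which gives homocysteine. Homocysteine is methylated to methionine, the precursor of S-adenosylmethionine, and the transsulfuration pathway interconverts homocysteine and cysteine. Transcription of these genes depends on the activator Met4, which is brought to DNA by Cbf1 (which binds CACGTG) or by Met31 and Met32, and which the ubiquitin ligase subunit Met30 holds in check when methionine is plentiful.

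The stretches upstream of 5 of the genes are shown because they carry the known binding motifs of these factors and the 5 genes span the range of responses below. Each is written 5′ to 3′ on the strand of its gene, from the RefSeq genome of build R64 (sacCer3). Capitals mark matches to CACGTG (Cbf1), to AAACTGTGG or its reverse complement CCACAGTTT (Met31 and Met32), or, in STR3, to TGACTC (Gcn4, the activator of amino acid synthesis genes).
STR3, chrVII:156366-156421, minus strand: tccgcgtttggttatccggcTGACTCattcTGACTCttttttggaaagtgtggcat
MET3, chrX:455842-456014, plus strand: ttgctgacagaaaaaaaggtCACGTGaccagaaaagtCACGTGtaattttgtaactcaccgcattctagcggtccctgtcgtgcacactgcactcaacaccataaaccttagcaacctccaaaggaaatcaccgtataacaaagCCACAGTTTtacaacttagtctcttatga
MET10, chrVI:213043-213106, plus strand: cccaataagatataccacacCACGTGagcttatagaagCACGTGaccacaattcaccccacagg
MET14, chrXI:439588-439633, minus strand: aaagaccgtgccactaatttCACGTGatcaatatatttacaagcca
MET17, chrXII:732222-732267, plus strand: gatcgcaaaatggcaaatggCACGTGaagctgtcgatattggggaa

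A search of the 500 bases before each start codon, on both strands, found CACGTG, which reads the same on both strands, upstream of 9 of the 10 genes, STR3 being the exception. The same letters stood before 6.33% of the 5627 tested genes whose upstream sequence could be read. AAACTGTGG stood before 2 of the 10, MET3 and MET6, and before 0.871% of those genes. TGACTC was found before STR3, MET16, MET5 and MET6, 4 of the 10, and before 12.8% of those genes. No match of one motif overlapped a match of another in these 10 windows. Only exact matches were counted, and near matches, such as aaagtgtgg in the STR3 stretch above, were not searched. These matches describe the sequence and do not show that a factor was bound.

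Library totals lay between 11372819 and 15906466 counts, and the 10 genes together held 0.166% to 0.179% of the counts of a Pcf11-13 library, 0.112% to 0.144% in Pcf11-DNL and between 0.101% and 0.127% in wild type. Levels are given in CPM, the count of a gene relative to its library's total after TMM scaling, and a change was called when its adjusted p in edgeR's quasi-likelihood test, with Benjamini-Hochberg adjustment over all tested genes, was under 0.05. PCF11 itself stood at 648 CPM ± 32.3 in Pcf11-13, 67.4 CPM ± 2.56 in Pcf11-DNL and 84.7 CPM ± 3.05 in wild type (SD, n = 3 each), so every Pcf11-13 library differed from the others in the level of the altered gene as well as in its allele. Of the mating markers, MF(ALPHA)1, an alpha pheromone gene, averaged 877 CPM in Pcf11-13, 977 CPM in Pcf11-DNL and 1091 CPM in wild type. In Pcf11-DNL against wild type, MF(ALPHA)1 (-0.16, adjusted p = 0.0285) and STE3 (-0.23, adjusted p = 0.00321) were lower, and MF(ALPHA)2 (-0.14, adjusted p = 0.064) did not pass. All 3 alpha markers were lower in Pcf11-13 than in wild type: MF(ALPHA)1 by -0.31, MF(ALPHA)2 by -1.04 and STE3 by -0.73 on the log2 scale. The a-cell markers STE2 (10.3 CPM in Pcf11-13 and 7.79 CPM in wild type; 0.40, adjusted p = 0.00953) and BAR1 (16.1 CPM in Pcf11-13 and 10.4 CPM in wild type; 0.62, adjusted p = 0.000233) were higher there, and the part of these shifts in the results below was not tested. The a-cell pheromone genes MFA1 and MFA2 were at 0 in all libraries except for 1 count of MFA1 in a Pcf11-13 library. Wild type replicate 1 differed most from its own group, with a chi-square over genes of 10.7 and 10.1 per degree of freedom against replicates 2 and 3, where the other replicate pairs had 2.5 to 4.7.

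In Pcf11-13, 9 of the 10 genes were higher than in wild type and none was lower, with a median log2 fold change over the 10 of 0.50. Among all tested genes, 35.2% were higher and 30.9% lower in that comparison, with a median of 0.03, so a change as such is common there. STR3 rose the most, by 5.16-fold, and MET3 by 2.61-fold. The other 7 rose by between 1.23-fold and 1.69-fold, and MET17 did not pass the test. More than 2-fold increases were called for 2 of the 10 genes and for 5.17% of all tested genes. The 9 genes that rose had no overlap between the Pcf11-13 and wild type libraries, which held, in the higher direction, for 37% of all tested genes. In a bulk culture, a higher level in every cell and a higher share of cells with much of the RNA cannot be told apart.

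In Pcf11-DNL, only MET3 and MET14 passed the test against wild type, both higher, and the median over the 10 was 0.19. Among all tested genes 8.73% were higher and 4.3% lower in Pcf11-DNL. Pcf11-DNL libraries were all above the wild type libraries for MET3, MET14 and MET16, 3 of the 10, and for 17% of all tested genes. At an unadjusted p under 0.05, edgeR had 5 of the 10 higher and 0 lower, against 16.1% higher and 12.7% lower among all tested genes. The DESeq2 Wald test, after adjustment, also had 2 of the 10 higher and 0 lower. Both mutants are set against the same wild type libraries, so their values against wild type share that error.

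**Figure D1:**
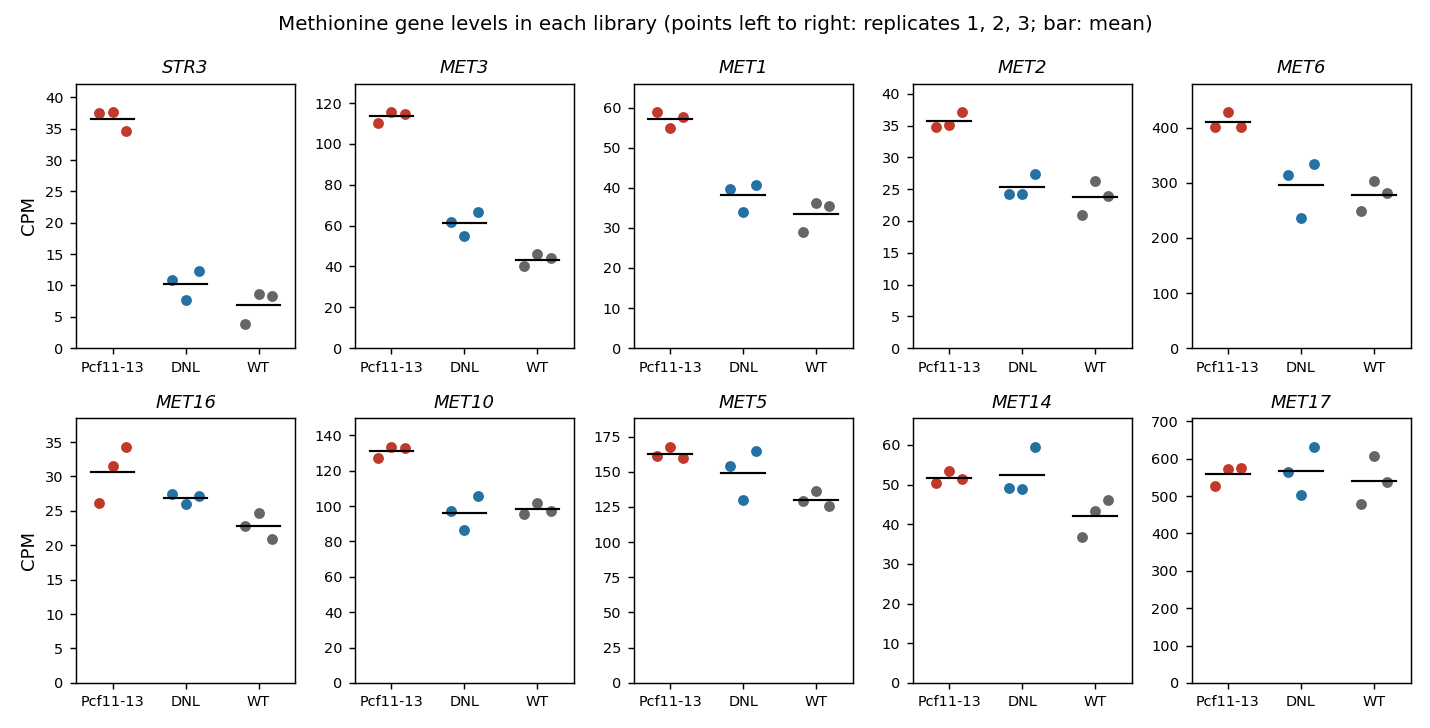
Level of each of the 10 genes in CPM in each library, one point per replicate (3 each of Pcf11-13, Pcf11-DNL and wild type), with the group mean as a bar. STR3 and MET3 have the largest fold differences, at 36.6 and 114 CPM in Pcf11-13 against 6.92 and 43.3 CPM in wild type, and the 3 groups overlap for MET17.

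Both sulfate activation genes, MET3 and MET14, were higher than wild type in either mutant. MET3 (YJR010W, chromosome X, 456239 to 457774, plus strand, a single coding exon) encodes ATP sulfurylase, which starts sulfate activation. It had 110, 116 and 115 CPM in Pcf11-13, 61.9, 55.1 and 66.7 CPM in Pcf11-DNL, and 40.0, 46.0 and 44.0 CPM in wild type. The 3 groups did not overlap, with Pcf11-DNL between the other groups. The log2 fold change was 1.39 ± 0.06 (SE) in Pcf11-13 against wild type (adjusted p = 3.87e-11) and 0.49 ± 0.07 in Pcf11-DNL against wild type (adjusted p = 0.000145). MET3 was the only one of the 10 genes called in all 3 pairs of groups.

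MET14 (YKL001C, chromosome XI, 438777 to 439385, minus strand, a single coding exon) encodes adenylylsulfate kinase, the next enzyme. Its levels were 50.4, 53.3 and 51.5 CPM in Pcf11-13, 49.0, 49.0 and 59.6 CPM in Pcf11-DNL, and 36.7, 43.3 and 46.0 CPM in wild type. Every library of either mutant lay above every wild type library, and the mutants overlapped each other. The log2 fold changes against wild type were 0.29 ± 0.08 in Pcf11-13 (adjusted p = 0.00631) and 0.31 ± 0.08 in Pcf11-DNL (adjusted p = 0.0235). The call in Pcf11-DNL was lost without Pcf11-DNL replicate 3 (0.22, adjusted p = 0.123) and without wild type replicate 1 (0.23, adjusted p = 0.0654).

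MET16 (YPR167C, chromosome XVI, 876847 to 877632, minus strand) encodes the reductase that turns activated sulfate into sulfite. It ranged from 26.2 to 34.3 CPM in Pcf11-13, from 26.1 to 27.5 CPM in Pcf11-DNL and from 20.9 to 24.6 CPM in wild type, with both mutants above wild type in every library. It rose in Pcf11-13 by 0.43 on the log2 scale (adjusted p = 0.000702). The Pcf11-DNL difference of 0.24 had a 95% interval of 0.04 to 0.44 and did not pass after adjustment (adjusted p = 0.101).

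Sulfite reductase is made of an alpha subunit, encoded by MET10 (YFR030W, chromosome VI, 213312 to 216419, plus strand), and a beta subunit, encoded by MET5 (YJR137C, chromosome X, 678957 to 683285, minus strand). MET10 had 127, 134 and 133 CPM in Pcf11-13, 97.0, 86.3 and 106 CPM in Pcf11-DNL, and 95.4, 102 and 97.3 CPM in wild type. Pcf11-13 stood above both other groups, which overlapped. MET10 rose in Pcf11-13 against wild type by 0.42 ± 0.06 on the log2 scale (adjusted p = 1.34e-05). Its difference in Pcf11-DNL against wild type was -0.03, with a 95% interval of -0.16 to 0.10.

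MET5 ranged from 160 to 168 CPM in Pcf11-13, from 130 to 165 CPM in Pcf11-DNL and from 126 to 136 CPM in wild type. It rose in Pcf11-13 (log2 fold change 0.32, adjusted p = 0.000509), while the Pcf11-DNL libraries overlapped both other groups. The Pcf11-DNL value of 0.20 against wild type (adjusted p = 0.0662) passed without Pcf11-DNL replicate 2 (0.29, adjusted p = 0.00315) and with library totals (0.25, adjusted p = 0.0274). The subunit genes thus differed in where Pcf11-DNL lay, and a test of one subunit against the other was not made.

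MET1 (YKR069W, chromosome XI, 571612 to 573393, plus strand) encodes a methyltransferase for siroheme, the cofactor of sulfite reductase. Its levels were 58.9, 54.8 and 57.6 CPM in Pcf11-13, 39.7, 33.9 and 40.7 CPM in Pcf11-DNL, and 28.9, 36.2 and 35.5 CPM in wild type. Pcf11-13 was apart from both other groups, which overlapped. The log2 fold change in Pcf11-13 against wild type was 0.76 ± 0.08 (adjusted p = 6.89e-07), the third highest of the 10 genes.

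MET2, MET17 and MET6 act in the steps that carry sulfide into methionine. MET2 (YNL277W, chromosome XIV, 117349 to 118809, plus strand) encodes homoserine O-acetyltransferase, which prepares the carbon chain. It ranged from 34.7 to 37.1 CPM in Pcf11-13, from 24.3 to 27.4 CPM in Pcf11-DNL and from 20.9 to 26.3 CPM in wild type, and rose in Pcf11-13 by 0.58 on the log2 scale (adjusted p = 1.11e-05).

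MET17 (YLR303W, chromosome XII, 732542 to 733876, plus strand) encodes O-acetylhomoserine sulfhydrylase, which joins sulfide to that chain. It had 527, 573 and 574 CPM in Pcf11-13, 564, 503 and 632 CPM in Pcf11-DNL, and 480, 608 and 537 CPM in wild type. All 3 groups overlapped. The log2 fold change was 0.04 in Pcf11-13 against wild type (95% interval -0.13 to 0.22) and 0.06 in Pcf11-DNL against wild type (-0.11 to 0.24). With library totals in place of TMM, MET17 passed in Pcf11-13 (0.26, adjusted p = 0.0171), where the median of all genes moved up by 0.21. The annotated reading frame YLR302C overlaps the start of MET17 on the other strand, and without a stated strand setting their reads cannot be told apart.

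MET6 (YER091C, chromosome V, 339864 to 342167, minus strand) encodes methionine synthase, which methylates homocysteine. It had 401, 429 and 402 CPM in Pcf11-13, 315, 237 and 334 CPM in Pcf11-DNL, and 248, 304 and 282 CPM in wild type. Pcf11-13 was above both other groups, and Pcf11-DNL spanned the whole wild type range. MET6 rose in Pcf11-13 by 0.56 ± 0.10 on the log2 scale (adjusted p = 8.49e-05).

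STR3 (YGL184C, chromosome VII, 154615 to 156012, minus strand) encodes the peroxisomal cystathionine beta-lyase, which makes homocysteine from cystathionine. It had 37.5, 37.7 and 34.6 CPM in Pcf11-13, 10.9, 7.66 and 12.3 CPM in Pcf11-DNL, and 3.90, 8.61 and 8.26 CPM in wild type. Every Pcf11-13 library was above all the others, and Pcf11-DNL replicate 2 lay within the wild type range. These levels rest on 430 to 580 counts per library in Pcf11-13, 109 to 160 in Pcf11-DNL and 44 to 126 in wild type. The log2 fold change in Pcf11-13 against wild type was 2.37 ± 0.18 (adjusted p = 1.27e-08), and it was 2.12 without wild type replicate 1, the lowest library. In Pcf11-DNL against wild type it was 0.53 ± 0.21, with a 95% interval of 0.09 to 0.97 (adjusted p = 0.104).

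**Figure D2:**
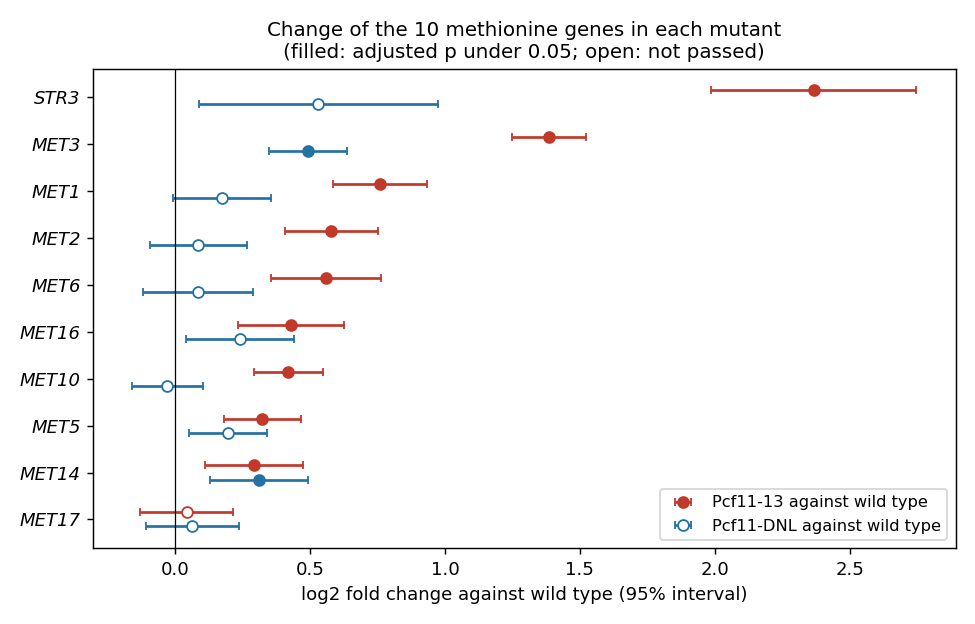
Log2 fold change of each of the 10 genes with its 95% interval, for Pcf11-13 against wild type and for Pcf11-DNL against wild type. STR3 lies at 2.37 and MET3 at 1.39 in Pcf11-13 against wild type, and the interval of MET17 spans 0 in both comparisons.

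Setting the alleles directly against each other, 6 of the 10 genes were lower in Pcf11-DNL than in Pcf11-13 and none was higher, with a median log2 fold change of -0.46. Of all tested genes, 30.9% were lower and 29.5% higher in this comparison. The 6 were STR3 (-1.84 ± 0.17, adjusted p = 1.72e-07), MET3 (-0.89 ± 0.06, adjusted p = 6.93e-09), MET1 (-0.58), MET2 (-0.49), MET6 (-0.48) and MET10 (-0.45). For these 6, no Pcf11-DNL library reached the level of any Pcf11-13 library, which held for 34.1% of all tested genes. The count of 0 higher was the same at an unadjusted p under 0.05, in edgeR, where 31.1% of all tested genes were higher, and in the DESeq2 Wald test. With library totals, 8 of the 10 were lower, with a median of -0.62. In that setting 2982 of the 5646 tested genes were lower and 870 higher, with a median of -0.18. Leaving out each library gave 6 to 7 of the 10 lower, and 1519 to 1839 of all tested genes.

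The other 4 genes did not pass the test between the alleles with TMM. MET14 differed by 0.02 (adjusted p = 0.859) and MET17 by 0.02 (adjusted p = 0.833). MET16 differed by -0.19 (adjusted p = 0.0838), and passed with library totals (-0.35, adjusted p = 0.00423) and without Pcf11-13 replicate 1 (-0.29, adjusted p = 0.00757). MET5 differed by -0.13 (adjusted p = 0.112), and passed with library totals (-0.29, adjusted p = 0.00187) and without Pcf11-DNL replicate 3 (-0.19, adjusted p = 0.0204).

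Divided by coding length, the levels spanned a wide range, and MET17 led in every group with 418 CPM per kb in Pcf11-13, 424 CPM per kb in Pcf11-DNL and 406 CPM per kb in wild type. MET6 came next and MET14 after it in all 3 groups. MET3 was next after MET14 in Pcf11-13, at 73.9 against 84.9 CPM per kb, and in Pcf11-DNL, at 39.9 against 86.2 CPM per kb. In the Pcf11-DNL order MET3, MET5, MET16 and MET10 each overlapped the next. In wild type, at 28.2 CPM per kb, MET3 came after MET10, MET5 and MET16. In the wild type order MET10, MET5, MET16 and MET3 each overlapped the next, as MET1 did MET2. In Pcf11-13 MET16 overlapped both MET10 and MET5, which did not overlap each other, and STR3, at 26.2 CPM per kb, overlapped MET2, at 24.4 CPM per kb. STR3 was the lowest in Pcf11-DNL at 7.37 CPM per kb and in wild type at 4.95 CPM per kb.

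Replicates of one group also differed across the genes together. Pcf11-DNL replicate 2 was the lowest of its group for 9 of the 10 genes, with a mean deviation from the group mean of -0.17 on the log2 CPM scale, and it was the lowest for 36.8% of all tested genes. Pcf11-DNL replicate 3 was the highest for 9 of the 10, as wild type replicate 2 was in its group. The share of all tested genes for which these libraries were highest was not computed. Pcf11-13 replicate 1 was the lowest of its group for 7 of the 10, with a mean deviation of -0.04, and for 34.9% of all tested genes. Wild type replicate 1 was the lowest of its group for 8 of the 10 genes, with a mean deviation of -0.18, and was the lowest for 35.5% of all tested genes. The deviation was largest for STR3 in wild type replicate 1, at -0.72.

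Averaged over the 10 genes after centring each on its mean over libraries, the log2 level was 0.37, 0.44 and 0.43 in Pcf11-13, -0.07, -0.26 and 0.05 in the Pcf11-DNL libraries, and -0.50, -0.18 and -0.27 in wild type. Pcf11-13 stood apart, and Pcf11-DNL and wild type overlapped through Pcf11-DNL replicate 2. Without wild type replicate 1, 9 of the 10 genes were still higher in Pcf11-13, with a median of 0.46, and 1 of the 10 in Pcf11-DNL. In that setting 1932 of the 5646 tested genes were higher in Pcf11-13 and 473 in Pcf11-DNL.

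**Figure D3:**
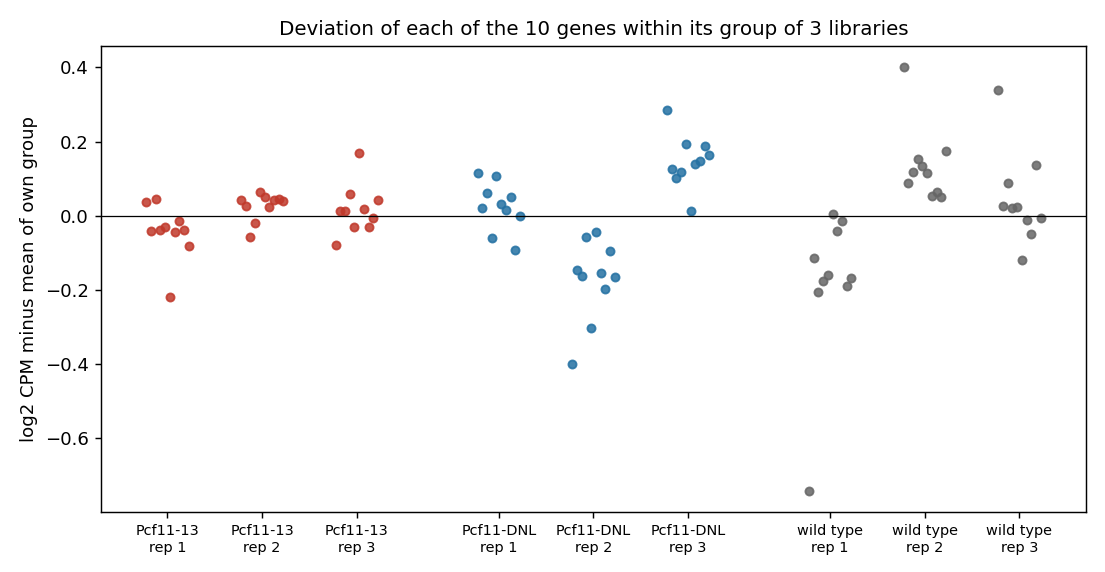
Deviation of each of the 10 genes from its group mean (log2 CPM, no prior count) in each library, one point per gene, for 3 replicates each of Pcf11-13, Pcf11-DNL and wild type. In Pcf11-DNL replicate 2, 9 of the 10 genes are the lowest of their group, and in wild type replicate 1 it is 8 of the 10, with STR3 the furthest below its group mean.

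Across the 9 libraries, the 45 pairs among the 10 genes had Pearson correlations of log2 CPM between 0.27 and 1.00, with a median of 0.78 and 14 pairs above 0.9. These describe 9 libraries that share 3 group means and their scaling. MET1 and STR3 followed the mean of the other 9 genes most closely, at 0.98 each, and MET14 at 0.67 and MET17 at 0.41 followed it least. The 5 genes outside the set with the pattern most like its mean, over the same 9 libraries, were PST1 (r = 0.990), IDH1 (r = 0.989), IKS1 (r = 0.988), NNR1 (r = 0.986) and AVT6 (r = 0.984). PST1, a cell wall protein gene, averaged 513 CPM in Pcf11-13, 329 CPM in Pcf11-DNL and 280 CPM in wild type, and NNR1 averaged 26.0 CPM in Pcf11-13, 14.7 CPM in Pcf11-DNL and 11.5 CPM in wild type.

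The wider sulfur pathway was followed in 5 lists of 48 genes, 10 of which are the genes above. In Pcf11-13 against wild type, 27 of the 48 were higher, 16 lower and 5 did not pass, with a median log2 fold change of 0.26. Of the 38 further genes, 18 were higher, 16 lower and 4 did not pass, with a median of 0.13, against 35.2% higher and 30.9% lower among all tested genes. With library totals in place of TMM, the split over the 48 became 31 higher and 10 lower. In that setting 3372 of the 5646 tested genes were higher and 861 lower, with a median of 0.25. The counts with library totals given for single lists below share that background.

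The uptake and reduction list held 10 genes, of which 8 were higher, 1 was lower and 1 did not pass (median 0.40). Besides MET3, MET14, MET16, MET5, MET10 and MET1, the sulfate permease genes SUL2 (0.77, adjusted p = 8.22e-07) and SUL1 (0.37, adjusted p = 4.11e-05) were higher in Pcf11-13. MET22, whose phosphatase removes the by-product of sulfate reduction, fell by 0.16 (adjusted p = 0.00491). Its direction turned with library totals (0.05). MET8, the siroheme synthase gene, was at 0.18 (adjusted p = 0.113), and passed with library totals (0.39, adjusted p = 0.00242), under which the list had 9 higher and 0 lower.

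**Figure D4:**
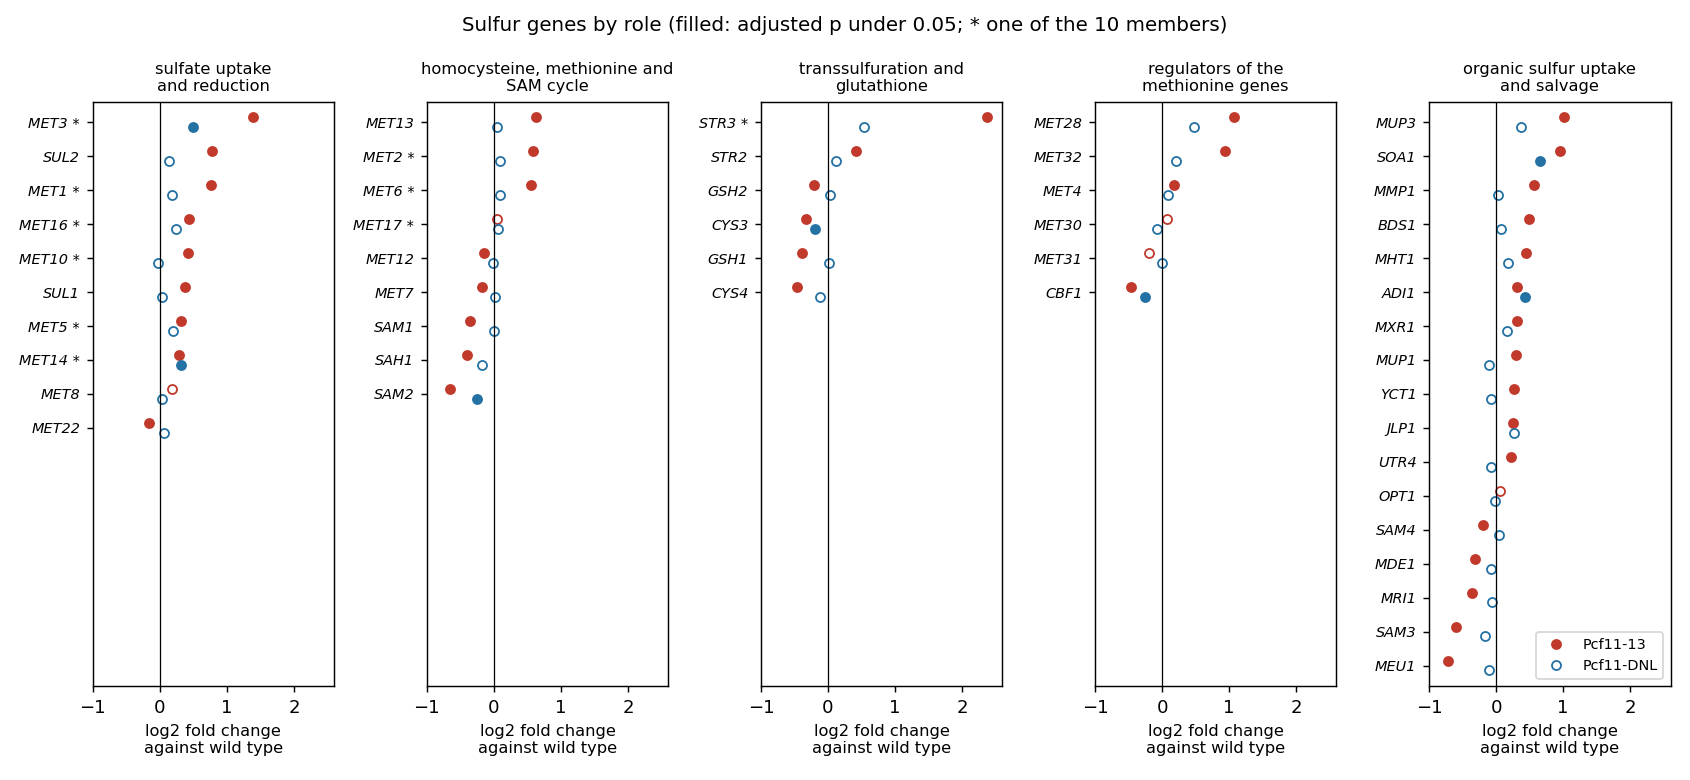
Log2 fold change of every gene of the 5 sulfur lists in Pcf11-13 against wild type and in Pcf11-DNL against wild type, one point per gene, with the 10 genes of sulfate assimilation and methionine synthesis marked. In Pcf11-13, the uptake and reduction list has 8 of 10 genes higher, while the transsulfuration and glutathione list has 4 of 6 lower.

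Further along the pathway the calls went both ways. In the list of homocysteine, methionine and S-adenosylmethionine genes, 3 of 9 were higher, 5 lower and 1 did not pass (median -0.15). MET2 and MET6 rose together with MET13 (0.63, adjusted p = 1.11e-06), which makes the methyl donor for MET6. The S-adenosylmethionine synthetase genes SAM2 (-0.66, adjusted p = 1.03e-08) and SAM1 (-0.36) fell, as did SAH1 (-0.41), which breaks down S-adenosylhomocysteine. MET7 and MET12, folate genes, were lower by TMM, and with library totals both lost the call and turned positive. With library totals the list had 4 higher and 3 lower.

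In the transsulfuration and glutathione list, which STR3 joins, 2 of 6 genes were higher and 4 lower (median -0.26). STR3 and STR2 (0.42, adjusted p = 1.68e-06), which encode the steps from cysteine towards homocysteine, were higher. CYS4 (-0.46, adjusted p = 8.59e-08) and CYS3 (-0.33, adjusted p = 6.92e-06), which encode the steps from homocysteine to cysteine, were lower. GSH1 and GSH2, the genes of glutathione synthesis, were lower as well, at -0.39 and -0.20, and GSH2 lost its call and turned positive with library totals.

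Among the 6 regulators, 3 were higher in Pcf11-13, 1 was lower and 2 did not pass (median 0.13). MET32 averaged 16.4 CPM in Pcf11-13, 9.90 CPM in Pcf11-DNL and 8.55 CPM in wild type, a rise of 0.93 in Pcf11-13 against wild type (adjusted p = 1.94e-06). MET28, a cofactor of Met4, rose by 1.08 (adjusted p = 0.00696) from low counts, 52 to 69 per library in Pcf11-13 against 16 to 38 in wild type. MET4 rose by 0.18 (adjusted p = 0.00085).

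CBF1 averaged 67.2 CPM in Pcf11-13, 77.8 CPM in Pcf11-DNL and 92.7 CPM in wild type. It fell in Pcf11-13 (-0.46, adjusted p = 5.43e-07) and in Pcf11-DNL (-0.25, adjusted p = 0.0025), so it was lower in both alleles, which share the wild type libraries. MET31 stood at -0.19 in Pcf11-13 (adjusted p = 0.0999), and was lower without wild type replicate 1 (-0.29, adjusted p = 0.00725). MET30 stood at 0.08 (adjusted p = 0.196), and was higher with library totals (0.29, adjusted p = 0.000152).

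The list of organic sulfur uptake and salvage held 17 genes, 11 higher, 5 lower and 1 not passed in Pcf11-13 (median 0.27). SOA1, a transporter gene for sulfur compounds, rose by 0.95 (adjusted p = 8.06e-07). MEU1 (-0.73, adjusted p = 1.26e-09) and MRI1 (-0.36), which salvage methionine from methylthioadenosine, and the S-adenosylmethionine permease gene SAM3 (-0.60) fell.

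In Pcf11-DNL against wild type, 4 of the 48 genes were higher and 3 lower, shares near the 8.73% and 4.3% of all tested genes. The higher ones were MET3, MET14, SOA1 (0.65, adjusted p = 0.000644) and ADI1 (0.43, adjusted p = 0.000582), a methionine salvage gene named because the count is small. The lower ones were SAM2 (-0.25, adjusted p = 0.00227), CYS3 (-0.19, adjusted p = 0.00728) and CBF1. In Pcf11-DNL against Pcf11-13, 16 of the 48 were higher and 21 lower, where 29.5% of all tested genes were higher and 30.9% lower. With library totals, 7 of the 48 were higher and 27 lower, and 870 of the 5646 tested genes were higher and 2982 lower.

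The upstream motifs were read against these changes as a description. Over all tested genes, the 356 with CACGTG had 123 higher and 115 lower in Pcf11-13 against wild type, with a median log2 fold change of 0.02, near that of all genes. The 49 with AAACTGTGG had 25 higher and 13 lower, with a median of 0.19. Both motifs stood before 14 tested genes, 0.249% of those read. Neighbouring genes on opposite strands can share a match, so these are counts of genes and not of separate sites. MET6 and IES5, 687 bp apart and both among the 14, share theirs, and MMP1 and MHT1 share a match to AAACTGTGG. Of the 14, 10 were higher, 2 lower and 2 did not pass, with a median of 0.61. Among all tested genes, 35.2% were higher and 30.9% lower. The 14 include 2 of the 10 genes and 6 further list genes, which were chosen with earlier results known. Of those 6, 3 were higher, 2 lower and 1 did not pass. The 14 further list genes with CACGTG had 5 higher and 7 lower, with a median of -0.04. MET3 and MET6 are among the 14 with both motifs, as are MET28 and MET32, and the 2 lower ones there are CYS4 and SAM2. The gene that rose most, STR3, has no exact match to either motif in its window. It has TGACTC at 389 and 379 bases before the start codon. MET17, which did not pass, has CACGTG at 300 bases, and MET14, which rose in both mutants, has it at 228 bases.

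The genes next to the 10 on the chromosome were examined because PCF11 acts where transcription ends. Of the 20 flanking genes 17 were tested, and in Pcf11-13 against wild type 5 were higher, 4 lower and 8 did not pass, where 35.2% of all tested genes were higher and 30.9% lower. In Pcf11-DNL against wild type 0 were higher, 1 was lower and 16 did not pass, where 8.73% of all tested genes were higher and 4.3% lower. The flanks of STR3, YGL185C downstream (-0.25, adjusted p = 0.00953) and MND1 upstream (0.22, adjusted p = 0.558), included no gene called higher. Neither did those of MET3, TDH2 upstream (-0.39, adjusted p = 6.36e-07) and SPC1 downstream (0.00, adjusted p = 0.986). Downstream on the same strand, TTI2, 250 bp behind MET5, was higher in Pcf11-13 (0.42, adjusted p = 0.00013), and MRP2, 217 bp behind MET16, was higher as well (0.34, adjusted p = 0.00809). The other tested flanks of that kind were YGL185C, given above, BOR1 behind MET2 (-0.02, adjusted p = 0.739) and YKR070W behind MET1 (-0.09, adjusted p = 0.179).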

How the data were processed

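The authors deposited 1 table of expected counts per gene and library, the estimated read counts that RSEM writes, with no normalization (10.8% of values were not whole). The submitters' processing notes name Trimmomatic 0.38, FastQC, STAR 2.6.1b, RSEM 1.3, DESeq2 1.26.0 and the build sacCer3. What each tool was used for, which annotation was counted and whether strand was used is not given here.

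Expected counts were rounded and analysed with R 4.3.3 and edgeR 4.0.16: filterByExpr (minimum count 10) kept 5646 of 5928 genes, TMM set the library scaling, and a single quasi-likelihood fit with 3 groups took in all 9 libraries. Every adjusted p is from the two-sided quasi-likelihood F test with Benjamini-Hochberg adjustment over all genes tested (threshold 0.05). The biological coefficient of variation was 4.59%. Log2 CPM used a prior count of 2. The steps were tested on simulated data. Alternatives were DESeq2 size factors, library totals, other filters, the DESeq2 Wald test (1.42.0), fits of the compared groups, replicate number as a block, and leaving out each library.

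The 10 genes and the 5 lists were chosen with earlier results of these data known. Beyond the 10, the genes named are PCF11, the 6 regulators, up to 4 genes of each other list with the smallest adjusted p in either mutant against wild type, and the 5 genes most correlated with the mean of the 10. Other genes are named only where a count or result turns on them, and were chosen after their values were seen. Positions and sequences come from the RefSeq R64 annotation and genome.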

Additional observations from a re-analysis of the deposited data

How the results depend on the processing

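Of 1274 recomputed values for 75 gene results, 1221 kept their direction and their side of the threshold, 28 lost the call, 10 gained it and 15 changed sign. Library totals in place of TMM moved the median log2 fold change of all genes up by 0.21 in Pcf11-13 against wild type, by 0.05 in Pcf11-DNL against wild type and by -0.16 in Pcf11-DNL against Pcf11-13. They gave 3372 genes higher and 861 lower in Pcf11-13 against wild type (1988 and 1744 with TMM), with 10 list genes lower in place of 16. In Pcf11-DNL against wild type they gave 124 genes lower in place of 243, and 7 list genes higher in place of 4. In Pcf11-DNL against Pcf11-13 they gave 870 genes higher and 2982 lower (1665 and 1742 with TMM), with 7 list genes higher in place of 16. Fitting only Pcf11-DNL and wild type gave 155 genes lower, and leaving out each library gave 129 to 233. Of the 10 genes, leaving out each library gave 1 to 3 higher in Pcf11-DNL against wild type: 1 when Pcf11-DNL replicate 3 was left out, likewise 1 when wild type replicate 1 was, and 3 when Pcf11-DNL replicate 2 was. Of all tested genes, leaving out each library gave 354 to 473 higher in that comparison. List genes lower in Pcf11-DNL against wild type numbered 5 with the replicate block, with the DESeq2 Wald test and with its size factors in edgeR, and 3 to 5 when each library was left out. The cause of these shifts was not tested.

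These values of the named genes changed sign. With library totals, MET10 in Pcf11-DNL against wild type was 0.022, MET14 and MET17 in Pcf11-DNL against Pcf11-13 were both -0.14, MET31 and MET22 in Pcf11-13 against wild type were 0.021 and 0.049, and CYS3 in Pcf11-DNL against Pcf11-13 was -0.031. Of these, MET22 and CYS3 were calls with TMM. Among list genes outside the named ones, MET7, MET12, GSH2 and SAM4, lower in Pcf11-13 against wild type with TMM, turned positive and lost the call (0.035, 0.06, 0.011 and 0.013), and MET12 in Pcf11-DNL against Pcf11-13 went below 0 (-0.029). Leaving out each library, MET17 lay between -0.036 (without wild type replicate 1) and 0.13 in Pcf11-13 against wild type. In Pcf11-DNL against wild type, MET17 lay between -0.018 (without Pcf11-DNL replicate 3) and 0.16, and was -0.014 without wild type replicate 1. MET10 lay there between -0.096 and 0.046 (without Pcf11-DNL replicate 2), and MET6 between -0.0097 (without Pcf11-DNL replicate 3) and 0.22. In Pcf11-DNL against Pcf11-13, MET14 lay between -0.072 and 0.066, and MET17 between -0.057 and 0.0999, both lowest without Pcf11-DNL replicate 3 and both also below 0 without Pcf11-13 replicate 1.

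Replicates of the same number were correlated in their deviations at 0.32, 0.21 and 0.08 between Pcf11-13 and wild type. Each of those libraries correlated best with its own number. Between Pcf11-DNL and wild type the values were 0.001, 0.14 and 0.03, and between Pcf11-DNL and Pcf11-13 they were -0.13, 0.05 and -0.04. The numbers were not taken as pairs in the main fit. With the replicate block, 9 of the 10 genes were higher in Pcf11-13 against wild type, 2 in Pcf11-DNL against wild type, and 6 were lower in Pcf11-DNL against Pcf11-13, as without it. Counting depth limits STR3 in wild type and MET28 most.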
